A study of Homo sapiens with 66 samples.

Results

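The 10 genes described here encode the enzymes of serine synthesis and of the folate-dependent one-carbon steps that follow it, together with asparagine synthetase. They were PHGDH, PSAT1, PSPH, SHMT1, SHMT2, MTHFD1, MTHFD1L, MTHFD2, ALDH1L2 and ASNS, taken by name, and all 10 were among the 20167 genes of the count table. Their mRNA was measured by RNAseq in AMO1 cells (wild type, 12 groups) and in CFZ-resistant L363 cells (L363-CFZr, 10 groups), both established human multiple myeloma lines, with 3 libraries in each of the 22 groups. Cells received NCP26, NCP22, halofuginone (HFG) or halofuginol at 1 µM, or DMSO, for 6 h or 24 h. AMO1 cells also received carfilzomib (CFZ), a proteasome inhibitor, for the same times. The labels do not give its dose, which the paper states in a figure legend. NCP26 and HFG are inhibitors of prolyl-tRNA synthetase, which loads proline on its tRNA. NCP26 was developed from NCP22, which acts on the same enzyme, and halofuginol is an analogue of HFG. The study asked how these compounds change gene expression in myeloma cells and in cells resistant to a proteasome inhibitor. The resistant line was 1 subline and its parental L363 line was not analysed here, so a difference between AMO1 and L363-CFZr cells is a difference between lines in which resistance cannot be told apart from the rest.

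Serine is made from a glycolytic intermediate in a chain of reactions catalysed by PHGDH, PSAT1 and PSPH. Serine hydroxymethyltransferases then split serine into glycine and a one-carbon unit carried by tetrahydrofolate, SHMT2 in mitochondria and SHMT1 in the cytosol. Mitochondrial MTHFD2 and MTHFD1L oxidise that unit and release it as formate, ALDH1L2 oxidises it to CO2, and cytosolic MTHFD1 returns formate to the folate pool that purine and thymidylate synthesis draw on. ASNS makes asparagine from aspartate and glutamine. Several of these genes are known targets of ATF4, the transcription factor that cells raise when uncharged tRNA activates the kinase GCN2 and eIF2α is phosphorylated.

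The start regions were searched for TGATGNAA, the core of the C/EBP-ATF site that ATF4 can bind, and for CACGTG, the E-box that MYC and related factors can bind, on both strands. The windows ran from 250 bases before to 50 bases after an annotated start (RefSeq, GRCh38.p14). Such windows were held for 7 of the 10 members, all but PSPH, SHMT2 and ALDH1L2. TGATGNAA occurred in 3.62% and CACGTG in 7.26% of all 35116 windows. In the printed window ASNS held TGATGAAA at 68 to 61 bases before the start, and the window of its other start held neither motif. MTHFD1L had 4 windows. The printed one held TGATGCAA at 129 to 122 bases and CACGTG at 154 to 149 bases before the start. Windows of 2 nearby starts held the same sites, TGATGCAA at 90 to 83 bases before the one and 25 to 32 bases after the other, and the window of the last start held neither. MTHFD1 held CACGTG at 15 to 10 bases before its start. PHGDH, PSAT1, SHMT1 and MTHFD2 held neither motif in these windows. The windows of 4 members are printed 5′ to 3′ on the strand of the gene, with TGATGNAA in capitals: ASNS and MTHFD1L because they hold it, PSAT1 because its mRNA had the highest fold change, and MTHFD1 because its mRNA fell while others rose.
ASNS (chr7:97872359-97872658, minus strand): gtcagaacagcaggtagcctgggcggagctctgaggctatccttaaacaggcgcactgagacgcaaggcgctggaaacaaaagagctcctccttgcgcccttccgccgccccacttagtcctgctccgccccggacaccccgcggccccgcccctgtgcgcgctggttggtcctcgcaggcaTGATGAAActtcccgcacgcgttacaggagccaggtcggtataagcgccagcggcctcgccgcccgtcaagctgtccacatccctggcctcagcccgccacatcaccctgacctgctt
MTHFD1L (chr6:150866236-150866535, plus strand): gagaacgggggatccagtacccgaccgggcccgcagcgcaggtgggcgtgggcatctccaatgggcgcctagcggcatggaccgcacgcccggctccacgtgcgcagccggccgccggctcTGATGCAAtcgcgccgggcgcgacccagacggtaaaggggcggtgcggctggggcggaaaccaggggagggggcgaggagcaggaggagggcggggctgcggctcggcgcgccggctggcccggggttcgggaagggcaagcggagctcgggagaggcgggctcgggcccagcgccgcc
PSAT1 (chr9:78296875-78297174, plus strand): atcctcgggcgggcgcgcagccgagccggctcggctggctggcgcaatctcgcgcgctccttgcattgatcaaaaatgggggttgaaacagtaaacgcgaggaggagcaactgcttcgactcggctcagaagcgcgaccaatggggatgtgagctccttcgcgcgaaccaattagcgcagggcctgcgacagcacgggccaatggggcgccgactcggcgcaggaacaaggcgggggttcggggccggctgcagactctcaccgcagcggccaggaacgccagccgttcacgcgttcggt
MTHFD1 (chr14:64388103-64388402, plus strand): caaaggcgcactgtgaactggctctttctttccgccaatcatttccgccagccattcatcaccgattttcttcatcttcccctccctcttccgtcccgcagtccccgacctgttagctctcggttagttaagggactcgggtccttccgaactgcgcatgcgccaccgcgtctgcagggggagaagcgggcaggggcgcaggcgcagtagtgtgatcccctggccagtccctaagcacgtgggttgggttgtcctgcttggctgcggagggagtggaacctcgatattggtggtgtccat

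Values are CPM, counts scaled to library size with TMM factors, and p-values are from edgeR's quasi-likelihood test, adjusted over all genes tested in a comparison, with a call at an adjusted p under 0.05. Fold changes are on the log2 scale with a standard error (SE), intervals are 95% intervals of the log2 fold change, and n is 3 libraries for every group mean. Total counts ran from 1666325 to 5761682 in AMO1 and from 2487872 to 6596543 in L363-CFZr libraries. All 8 plasma cell markers were at 5 CPM or more in every library of both lines, and summed markers of B, T, myeloid and erythroid cells reached at most 4.01 CPM, and those of stromal cells at most 9.65 CPM in AMO1 and 6.73 CPM in L363-CFZr libraries. The plasma cell markers moved with treatment: their sum was 4777 to 5262 CPM with DMSO and 2807 to 2979 CPM with HFG in AMO1 cells at 6 h, and their part in the results was not tested. Sample numbers in the column names fell into 3 library sets. The treated AMO1 libraries at 24 h, except 1 of CFZ, were of another set than their DMSO libraries, and so were HFG and halofuginol in L363-CFZr cells at 6 h, so that set and treatment cannot be told apart there within 1 comparison. A fit of all groups of a line with a term for the set was therefore run. The term rests on the 1 group of each line that spans sets. In AMO1 this is CFZ at 24 h, with replicate 1 in another set than replicates 2 and 3. In L363-CFZr it is NCP22 at 6 h, with replicate 3 in another set than replicates 1 and 2. A call kept or lost with the term is therefore a weak check and does not separate set from treatment. With the term 7 members were called for each of NCP26, HFG and CFZ in AMO1 cells at 24 h, against 8, 7 and 7 without it. In L363-CFZr cells at 6 h 9 were called for HFG and 0 for halofuginol, against 10 and 2. The share of all genes called with the term is not given, so these counts are no result about the members alone. DMSO replicate 2 of L363-CFZr at 24 h and CFZ replicate 2 of AMO1 at 24 h stood apart from their mates, with SDs of the log2 difference of 0.693 and 0.603 against a median of 0.272 over 66 libraries. Treatments of a line and time share 3 DMSO libraries, so the comparisons with DMSO are not independent of each other.

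With DMSO alone SHMT2 was the most abundant of the 10 mRNAs. Per kilobase of transcript, SHMT2 stood above the others in all 4 DMSO groups, at 224 ± 11.5 CPM per kb in AMO1 and 108 ± 3.59 CPM per kb in L363-CFZr cells at 6 h. Next stood MTHFD2 in AMO1 cells (97.7 ± 3.58 CPM per kb) and PHGDH in L363-CFZr cells (47.04 ± 1.96 CPM per kb). At the low end were PSPH (16.6 ± 3.21) and ALDH1L2 (10.51 ± 0.209 CPM per kb) in AMO1 cells at 6 h. In that order PSAT1 and MTHFD1 overlapped between libraries, as did SHMT1 and MTHFD1L, and the other neighbours did not. Lengths are those of 1 canonical transcript, so levels per kb of genes with other expressed transcripts are approximate.

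With the same solvent, most of the 10 mRNAs were lower in the resistant line. At 6 h 8 of 10 were lower in L363-CFZr than in AMO1 cells, where 31.3% of all genes tested were lower, and 1, PHGDH, was higher, where 28.9% were. The largest differences were those of MTHFD2 and MTHFD1L. MTHFD2 was at 413, 436 and 443 CPM in AMO1 and 178, 170.5 and 168 CPM in L363-CFZr libraries, a log2 difference of −1.35 ± 0.070 (SE), with an adjusted p of 1.33e-12. MTHFD1L differed by −1.21 ± 0.10 (SE), with an adjusted p of 2.29e-09. PSPH was not called, with a difference of −0.09 ± 0.15 and an interval of −0.39 to 0.22. The 6 h call of MTHFD1 was lost with the replicate block and without AMO1 DMSO replicate 1 or 2 or L363-CFZr DMSO replicate 1. At 24 h 6 of 10 were lower (of all genes 20.5%) and 0 higher. Without DMSO replicate 2 of L363-CFZr 9 differed, among them PHGDH (0.56) and PSPH (0.34), which were higher. In that last fit ALDH1L2 turned from 0.07 to −0.25. Counts of members from alternative fits, such as those without a library, are given here and below without the share of all genes called. They show how the calls depended on single libraries or settings and are no result about the members alone. The lines were also of different library sets.

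**Figure D1:**
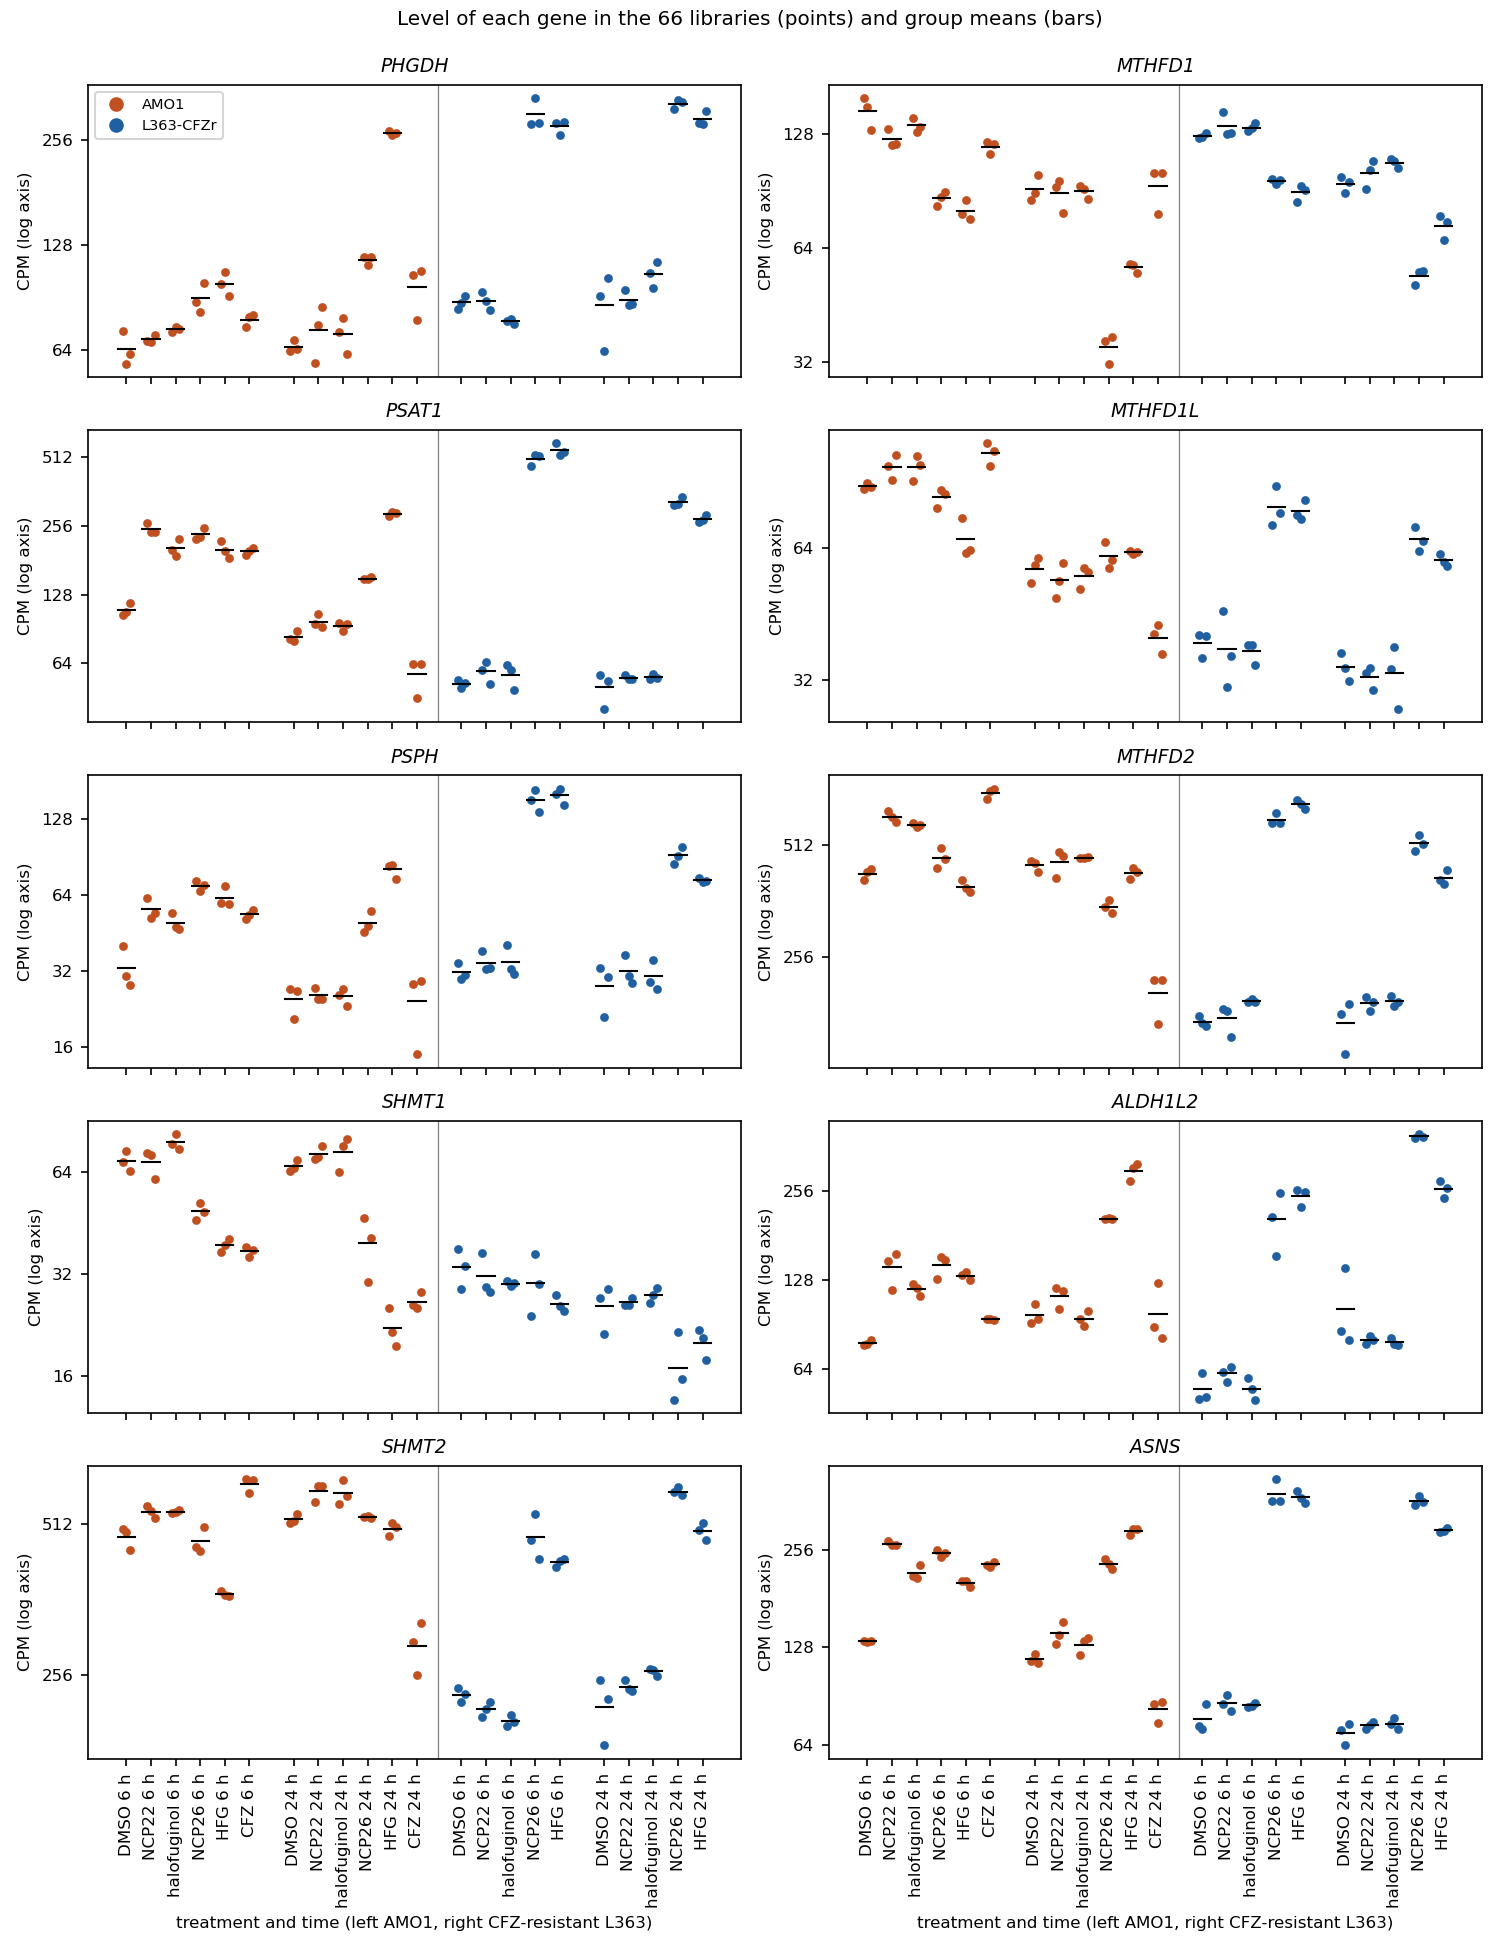
CPM of each of the 10 genes (1 panel each, log axis) in every library, for the 12 AMO1 and the 10 L363-CFZr groups, with bars at the group means. PSAT1 in L363-CFZr cells lies at 40.4 to 65.1 CPM with DMSO, NCP22 and halofuginol and at 266 to 591 CPM with NCP26 and HFG.

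NCP26 and HFG raised 8 of the 10 genes in CFZ-resistant L363 cells at both times. The other 2, the cytosolic enzymes SHMT1 and MTHFD1, rose with neither. For NCP26 at 6 h 8 members rose (of all genes 9.81%) and 1 fell (8.99%), with a median log2 fold change of 1.82 against 0.01 over all genes. HFG at 6 h raised 8 (26.9% of all genes) and lowered 2 (27.5%), with a median of 1.84. With a term for the library set the 8 rises with HFG were still called, from 0.83 for SHMT2 to 3.68 for PSAT1. At 24 h NCP26 raised 8 (2.71%) and lowered 1 (4.38%), and HFG raised 8 (0.592%), with medians of 1.66 and 1.32. The HFG call at 24 h depended on single libraries: 2 members were called without DMSO replicate 1 or without any 1 of the HFG libraries, 4 without DMSO replicate 3 and 10 without DMSO replicate 2, while the median stayed between 1.20 and 1.35.

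In AMO1 cells the same 2 compounds raised 5 of the 10 genes, and the counts that fell were, except for HFG at 6 h, near or under the share of all genes that fell. At 6 h NCP26 raised 5 members (18.1% of all genes) and lowered 2 (19.2%), and HFG raised 5 (27.7%) and lowered 4 (26.6%). At 24 h NCP26 raised 5 (29.8%) and lowered 3 (30.9%), and HFG raised 5 (28.5%) and lowered 2 (30.5%). The 5 that rose were the same in each case: PHGDH, PSAT1, PSPH, ALDH1L2 and ASNS. CFZ raised 8 (14.1%) and lowered 2 (12.8%) at 6 h, but at 24 h it raised 1 (13.1%) and lowered 6 (14%). NCP22 and halofuginol each raised 5 members and lowered 0 at 6 h, where they raised 7.42% and 2.6% of all genes.

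**Figure D2:**
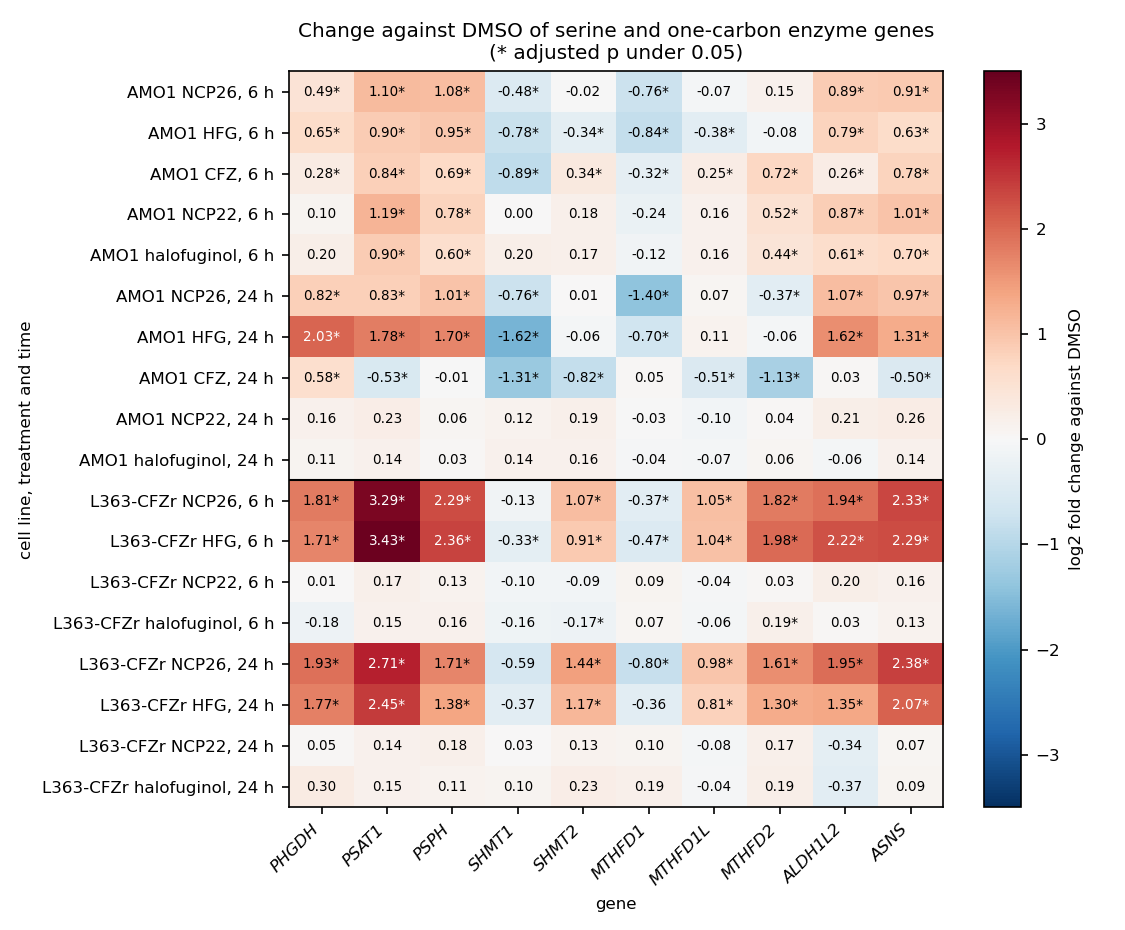
Log2 fold change of each gene (columns) against DMSO of the same line and time for the 18 treatment comparisons (rows), with calls at an adjusted p under 0.05 marked. In L363-CFZr cells the NCP26 and HFG rows reach 3.29 and 3.43 for PSAT1 at 6 h, and the NCP22 and halofuginol rows at 24 h hold no call.

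The serine synthesis enzymes rose together with NCP26 and HFG in both lines. PSAT1, the aminotransferase of the chain, gene ENSG00000135069 at chr9:78297125-78330093 on the plus strand, had the largest rise of the 10 in L363-CFZr cells. In L363-CFZr cells at 6 h PSAT1 was at 54.3, 49.8 and 52.6 CPM with DMSO, 472, 523 and 519 CPM with NCP26 and 591, 524 and 540.1 CPM with HFG. Every treated library was far above every DMSO library. The rise was 9.80-fold with NCP26, a log2 fold change of 3.29 ± 0.11 (SE), with an adjusted p of 5.06e-08. With HFG it was 10.8-fold, 3.43 ± 0.074 (SE), with an adjusted p of 6.65e-21. At 24 h PSAT1 remained 6.53-fold higher with NCP26 and 5.45-fold with HFG, and without DMSO replicate 2 the log2 values were 2.57 and 2.32. In AMO1 cells at 6 h it went from 105, 108 and 118 CPM with DMSO to 226, 229 and 252 CPM with NCP26, a rise of 2.15-fold and 1.10 ± 0.10 (SE), with an adjusted p of 8.35e-06.

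PHGDH, gene ENSG00000092621 at chr1:119648411-119744218 on the plus strand, which oxidises phosphoglycerate in the first step, rose less than PSAT1 in L363-CFZr cells, and its largest rise in AMO1 cells was with HFG at 24 h. It was at 84.2, 87.6 and 91.5 CPM with DMSO and 285, 339 and 288 CPM with NCP26 in L363-CFZr libraries at 6 h, a log2 fold change of 1.81 ± 0.11 (SE), with an adjusted p of 1.84e-06. In AMO1 libraries at 24 h it was at 63.5, 68.3 and 64.6 CPM with DMSO, 118, 113 and 118 CPM with NCP26 and 272, 265 and 268 CPM with HFG. The 3 groups did not overlap, and HFG stood highest. The log2 fold changes were 0.82 ± 0.074 with NCP26 (adjusted p = 4.96e-11) and 2.03 ± 0.065 with HFG (adjusted p = 8.93e-15). With a term for the library set they were 0.98 and 2.20, both still called. At 6 h the AMO1 rise was smaller, 0.49 ± 0.12 with NCP26 and 0.65 ± 0.099 with HFG, both called.

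PSPH, gene ENSG00000146733 at chr7:56011051-56051604 on the minus strand, is the phosphatase that releases serine. In L363-CFZr libraries at 6 h it was at 34.2, 29.7 and 30.7 CPM with DMSO and 161, 168 and 145 CPM with HFG, a log2 fold change of 2.36 ± 0.093 (SE), with an adjusted p of 5.64e-16. NCP26 gave 2.29 ± 0.12 there, also without overlap of the groups. In AMO1 cells at 6 h all 5 treatments raised PSPH, from 0.60 with halofuginol to 1.08 with NCP26, and at 24 h HFG raised it 3.25-fold (log2 2.05 with a term for the library set, also called). The 6 h call with halofuginol was lost without DMSO replicate 2 (0.54) or without halofuginol replicate 1 (0.53). CFZ at 24 h left PSPH at −0.01 ± 0.24, with an interval of −0.57 to 0.55, after a rise of 0.69 ± 0.13 at 6 h.

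ASNS, gene ENSG00000070669 at chr7:97851677-97872542 on the minus strand, rose with NCP26 and HFG in both lines. In L363-CFZr libraries at 6 h it was at 73.0, 71.6 and 85.7 CPM with DMSO, 360.1, 421 and 360.5 CPM with NCP26 and 387, 369 and 357 CPM with HFG. Both treated groups lay above all DMSO libraries and overlapped each other. The log2 fold changes were 2.33 ± 0.11 and 2.29 ± 0.073, with adjusted p-values of 1.00e-06 and 9.18e-18, and at 24 h they were 2.38 ± 0.13 and 2.07 ± 0.11. In AMO1 cells at 6 h all 5 treatments raised it, from 134, 133 and 134 CPM with DMSO to 204, 205 and 197 CPM with HFG at the low end and 272, 264 and 265 CPM with NCP22 at the high end. ASNS calls carry a limit of assignment: 99.5% of the 31-mers of its canonical transcript also occur in an annotated lncRNA, ENSG00000284707, and 6.62% in the pseudogene ASNSP1, neither of which was analysed here. For PSAT1 15.5% of 31-mers were shared, mostly with the processed pseudogenes PSAT1P3 and PSAT1P4, and for PHGDH 0. The shares were 26.3% for MTHFD1, 19.4% for PSPH and 12.7% for SHMT1, and 3.9% or less for SHMT2, MTHFD1L and ALDH1L2. How the authors' counting divided such reads is not given in the sources used here.

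The serine hydroxymethyltransferases parted by compartment and by line. SHMT2, gene ENSG00000182199 at chr12:57229573-57234935 on the plus strand, the mitochondrial enzyme, rose with NCP26 and HFG in L363-CFZr cells and, in the main fits, not in AMO1 cells. In L363-CFZr libraries at 6 h it was at 241, 225 and 234 CPM with DMSO and 475, 537 and 435 CPM with NCP26, a log2 fold change of 1.07 ± 0.10 (SE), with an adjusted p of 9.08e-05. At 24 h the rise with NCP26 was 1.44 ± 0.15 (SE), with an adjusted p of 0.00282. In AMO1 cells NCP26 left SHMT2 at −0.02 ± 0.099 (interval −0.24 to 0.19) at 6 h and at 0.01 ± 0.042 (interval −0.07 to 0.10) at 24 h. With an offset for GC content the 24 h value was called, at 0.12. HFG lowered SHMT2 in AMO1 cells at 6 h, with a log2 fold change of −0.34 ± 0.065 (SE) and an adjusted p of 3.38e-04.

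SHMT1, gene ENSG00000176974 at chr17:18327860-18363563 on the minus strand, the cytosolic enzyme, fell in AMO1 cells with NCP26, HFG and CFZ. At 24 h it was at 64.6, 65.7 and 69.4 CPM with DMSO, 46.96, 30.3 and 40.99 CPM with NCP26, 25.3, 21.5 and 19.6 CPM with HFG and 25.9, 25.3 and 28.4 CPM with CFZ. None of the 9 treated libraries reached the lowest DMSO library. The log2 fold changes were −0.76 ± 0.11, −1.62 ± 0.11 and −1.31 ± 0.12, with adjusted p-values of 3.57e-07, 8.11e-10 and 2.07e-04. With a term for the library set they were −0.83, −1.68 and −1.36, all called. In L363-CFZr cells SHMT1 fell with HFG at 6 h, with a log2 fold change of −0.33 ± 0.12 (adjusted p = 0.0286), a call that was lost with a term for the library set (−0.12, adjusted p = 0.807). With NCP26 it gave −0.13 ± 0.17 at 6 h and −0.59 ± 0.21 at 24 h, neither called, and at 24 h it was called with all groups in one fit and without DMSO replicate 2 (−0.69). A lower share of counts in bulk RNA does not tell fewer cells that express a gene from less of its RNA per cell.

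Within a library, the ratio of SHMT2 to SHMT1 per kilobase was 8.22 ± 0.363 (SD) in AMO1 and 8.23 ± 0.832 in L363-CFZr cells with DMSO at 6 h. With NCP26 it was 19.1 ± 3.42 in L363-CFZr cells at 6 h and 42.5 ± 9.10 at 24 h. In AMO1 cells it reached 19.3 ± 0.137 with CFZ at 6 h and 26.9 ± 4.04 with HFG at 24 h. All libraries of these treated groups lay above all DMSO libraries of their line and time. These ratios were chosen after the values were seen and have no test.

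**Figure D3:**
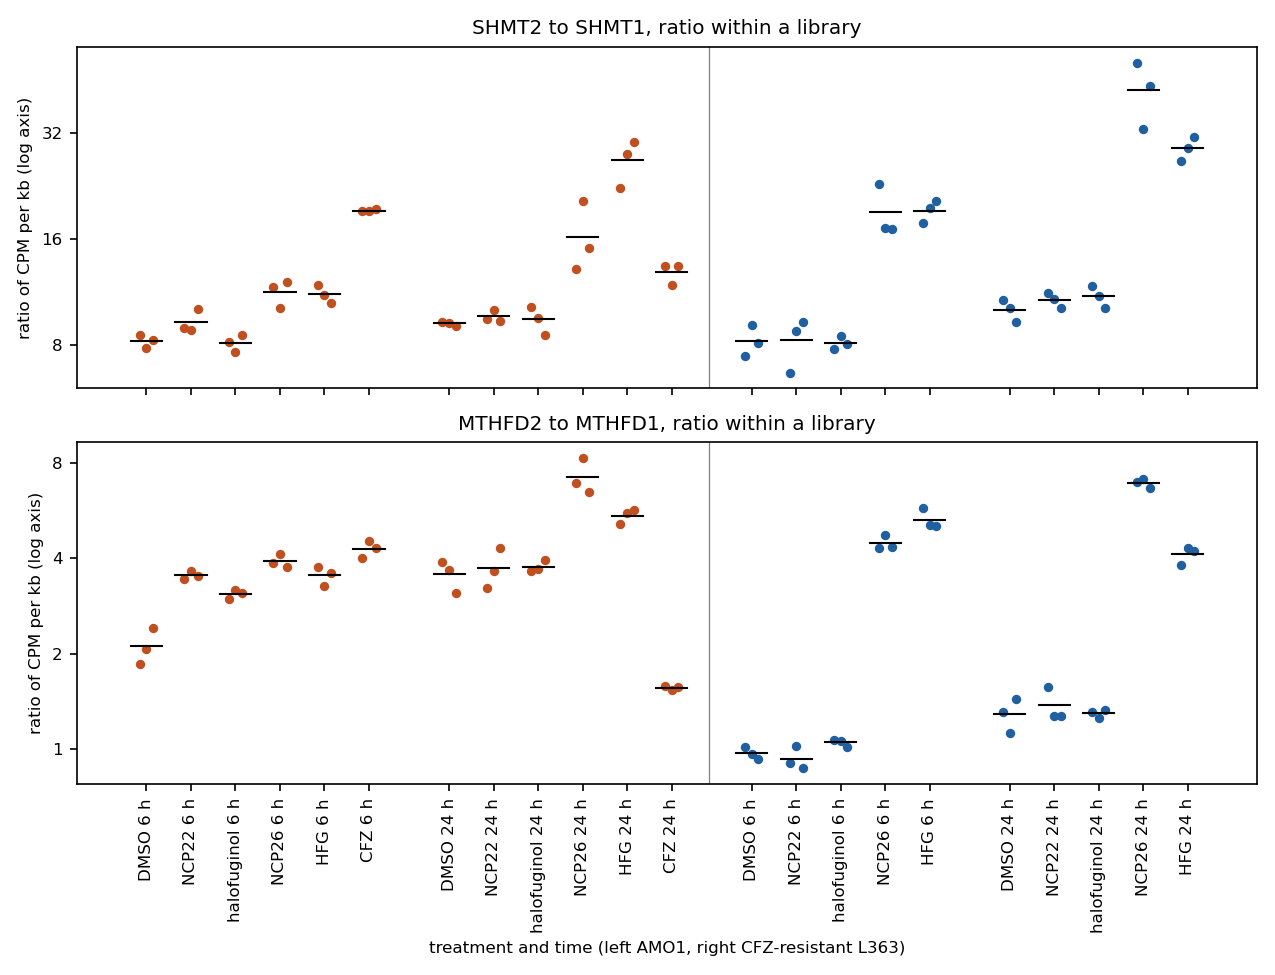
Ratio of SHMT2 to SHMT1 (top) and of MTHFD2 to MTHFD1 (bottom), each per kilobase, within every library (points) with group means (bars), on log axes. In L363-CFZr cells both ratios are higher with NCP26 and HFG than with DMSO, NCP22 or halofuginol, and in AMO1 cells CFZ at 24 h has the lowest ratio of MTHFD2 to MTHFD1, 1.56.

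Among the mitochondrial folate enzymes, MTHFD2 and MTHFD1L rose with NCP26 and HFG in L363-CFZr cells and ALDH1L2 rose in both lines. MTHFD2, gene ENSG00000065911 at chr2:74186172-74217565 on the plus strand, a dehydrogenase and cyclohydrolase, was at 178, 170.5 and 168 CPM with DMSO, 588, 626 and 587 CPM with NCP26 and 679, 663 and 641 CPM with HFG at 6 h. The 3 groups did not overlap. The log2 fold changes were 1.82 ± 0.094 (adjusted p = 1.17e-06) and 1.98 ± 0.059 (adjusted p = 3.37e-18). In AMO1 cells NCP26 gave 0.15 ± 0.097 at 6 h, with an interval of −0.06 to 0.36. It was called without NCP26 replicate 1 (0.22), a library with 15581 genes detected against 13577 and 13636 in its mates. At 24 h NCP26 lowered MTHFD2, with a log2 fold change of −0.37 ± 0.046 (SE) and an adjusted p of 4.62e-08. That call was lost with a term for the library set (−0.21, adjusted p = 0.284). With HFG in AMO1 cells MTHFD2 was not called at 6 h or 24 h. With an offset for GC content it was called lower at both times (−0.29 and −0.15). Of the 31-mers of MTHFD2 45.4% occur in other genes, 29.6% in SLC4A5, which had 561 counts over all 66 libraries.

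MTHFD1L, gene ENSG00000120254 at chr6:150865679-151101887 on the plus strand, the mitochondrial formate-releasing enzyme, was at 40.5, 35.8 and 40.2 CPM with DMSO and 72.2, 89.1 and 77.0 CPM with NCP26 in L363-CFZr libraries at 6 h. The groups did not overlap, and the log2 fold change was 1.05 ± 0.12 (SE), with an adjusted p of 3.35e-04. With HFG it was 1.04 ± 0.095 at 6 h and 0.81 ± 0.12 at 24 h. In AMO1 cells HFG lowered MTHFD1L at 6 h, with a log2 fold change of −0.38 ± 0.093 (SE), with an adjusted p of 0.00272, and NCP26 gave −0.07 ± 0.096 with an interval of −0.28 to 0.14. Of the 7 members searched, MTHFD1L was the only one with a window that held both motifs.

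ALDH1L2, gene ENSG00000136010 at chr12:105019784-105107643 on the minus strand, the mitochondrial formyl-tetrahydrofolate dehydrogenase, was at 50.3, 61.7 and 51.3 CPM with DMSO and 256, 225 and 253 CPM with HFG in L363-CFZr libraries at 6 h, a log2 fold change of 2.22 ± 0.083 (SE), with an adjusted p of 2.34e-16. The NCP26 libraries were spread more widely, at 209, 154 and 251 CPM, and gave 1.94 ± 0.18. At 24 h DMSO replicate 2 of L363-CFZr was high, with 85.7, 141 and 79.8 CPM over the 3 DMSO libraries against 384, 398 and 389.8 CPM with NCP26. The log2 fold change was 1.95 ± 0.22 with that library and 2.25 without it. In AMO1 cells ALDH1L2 was 2.11-fold higher with NCP26 and 3.08-fold higher with HFG at 24 h, and with a term for the library set the log2 values went from 1.07 and 1.62 to 0.85 and 1.40, both called.

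MTHFD1, gene ENSG00000100714 at chr14:64388031-64463457 on the plus strand, the cytosolic trifunctional enzyme, fell with NCP26 and HFG in AMO1 cells. In L363-CFZr cells it fell with HFG at 6 h and, by calls that single libraries could undo, with NCP26. In AMO1 libraries at 24 h it was at 85.5, 89.5 and 100.0 CPM with DMSO, 36.3, 31.6 and 37.3 CPM with NCP26 and 58.0, 57.5 and 55.0 CPM with HFG. The 3 groups did not overlap, and NCP26 was lowest. The log2 fold change was −1.40 ± 0.094 (SE), with an adjusted p of 5.75e-14, and with HFG it was −0.70 ± 0.089 (SE), with an adjusted p of 1.92e-06. With a term for the library set these were −1.25 and −0.55, both called. At 6 h its log2 fold changes were −0.76 ± 0.10 with NCP26 and −0.84 ± 0.089 with HFG, both called, within 1 library set. In L363-CFZr cells the log2 fold change with NCP26 was −0.37 ± 0.091 at 6 h (adjusted p = 0.0173) and −0.80 ± 0.12 at 24 h (adjusted p = 0.00936). Both calls were lost with the replicate block (adjusted p = 0.0780 and 0.0692), the 6 h call also without NCP26 replicate 1 or any 1 of the DMSO libraries, and the 24 h call without any 1 of the NCP26 libraries. With HFG at 6 h the log2 fold change was −0.47, which was called, though these HFG libraries were of another set than DMSO. The 24 h value with HFG was −0.36 ± 0.11, which was not called (adjusted p = 0.185) and was called with all groups in one fit and without DMSO replicate 2 (−0.40).

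The ratio of MTHFD2 to MTHFD1 per kilobase set the mitochondrial against the cytosolic enzyme within a library. In L363-CFZr cells it was 0.973 ± 0.0422 with DMSO, 4.47 ± 0.227 with NCP26 and 5.29 ± 0.395 with HFG at 6 h, and 1.29 ± 0.159, 6.90 ± 0.231 and 4.11 ± 0.263 at 24 h. In AMO1 cells it was 3.56 ± 0.403 with DMSO, 7.21 ± 0.953 with NCP26 and 1.56 ± 0.0194 with CFZ at 24 h. Within each line and time these groups did not overlap. Like the ratio before it, this one was chosen after the values were seen.

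CFZ, given to AMO1 cells only, gave 5 of the 10 genes called changes of opposite sign at 6 h and 24 h, while PHGDH was called higher and SHMT1 lower at both times. The share of all genes with opposite called signs at the 2 times is not given here. The count is therefore no result about the members alone. MTHFD2 was at 413, 436 and 443 CPM with DMSO and 682, 716 and 729 CPM with CFZ at 6 h, a log2 fold change of 0.72 ± 0.060 (SE), with an adjusted p of 7.41e-09. At 24 h it was at 464, 460.0 and 434 CPM with DMSO and 222, 169.7 and 222 CPM with CFZ, a log2 fold change of −1.13 ± 0.13 (SE), with an adjusted p of 5.67e-04. The treated libraries lay all above DMSO at 6 h and all below DMSO at 24 h. PSAT1, SHMT2, MTHFD1L and ASNS had the same pair of called signs, with 0.84, 0.34, 0.25 and 0.78 at 6 h and −0.53, −0.82, −0.51 and −0.50 at 24 h. The PSAT1 call at 24 h was lost without any 1 of the DMSO libraries. That of MTHFD1L was lost without DMSO replicate 2 or 3 or CFZ replicate 3, and that of ASNS without DMSO replicate 2. PHGDH was the 1 member that CFZ raised at 24 h, by 0.58 ± 0.13 (SE), with an adjusted p of 0.0139, a call that was lost without any 1 of the DMSO libraries. The 6 h calls of MTHFD1L, PHGDH and ALDH1L2, between 0.25 and 0.28, were lost by DESeq2 (adjusted p = 0.122, 0.146 and 0.106), with the replicate block and without several of the single libraries. With a term for the library set the same 7 members were called at 24 h, with MTHFD2 at −1.02 and PHGDH at 0.69. That fit takes the CFZ value in effect from replicate 1, since no other AMO1 group spans the sets. Without CFZ replicate 2, which stood apart, 7 members were again called, and MTHFD2 was at −1.02. Without DMSO replicate 2 or 3 the count was 3 or 4. The difference between the times was not tested.

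Of the 12 compound pairs compared at the same 1 µM, line and time, NCP26 and HFG differed least at 6 h. In AMO1 cells 0 members differed at 6 h, where 28 genes did in all, and in L363-CFZr cells 0 of 10688 genes differed by edgeR, 1188 of them at an unadjusted p under 0.05, and 0 by DESeq2. The intervals of the log2 difference, NCP26 minus HFG, were −0.35 to 0.07 for PSAT1, −0.19 to 0.24 for ASNS and −0.61 to 0.07 for ALDH1L2 in L363-CFZr cells, and −0.36 to 0.08 for PHGDH in AMO1 cells. The 10 members in AMO1 cells at 6 h ran from −0.14 to 0.34, with a median of 0.24 against −0.0018 over all genes. SHMT2 was called there without NCP26 replicate 1, at 0.36. At 24 h most differences had opposite signs in the 2 lines, which was not tested between lines. In AMO1 cells 7 members were lower with NCP26 than with HFG (22.4% of all genes) and 1, SHMT1, was higher (22.6%). PHGDH differed most, by −1.22 ± 0.058 (SE), with an adjusted p of 1.23e-11, then PSAT1, by −0.96 ± 0.055. In L363-CFZr cells 6 were higher with NCP26 (5.52%) and 1, MTHFD1, was lower (7.43%). The largest of these was ALDH1L2, by 0.60 ± 0.062 (SE), with an adjusted p of 7.08e-05, and the other 5 higher values ran from 0.26 to 0.33. With 1 library left out, 5 to 8 members were called in this pair. The PSAT1 call was lost without HFG replicate 1 or 2, and that of PSPH without NCP26 replicate 3 or HFG replicate 2 or 3. NCP26 and HFG libraries at 24 h were of 1 set in each line. At 6 h they were of 1 set in AMO1 cells. In L363-CFZr cells at 6 h they were of different sets, so set and compound cannot be told apart there. The log2 differences of all genes in that pair correlated with GC content at 0.51.

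**Figure D4:**
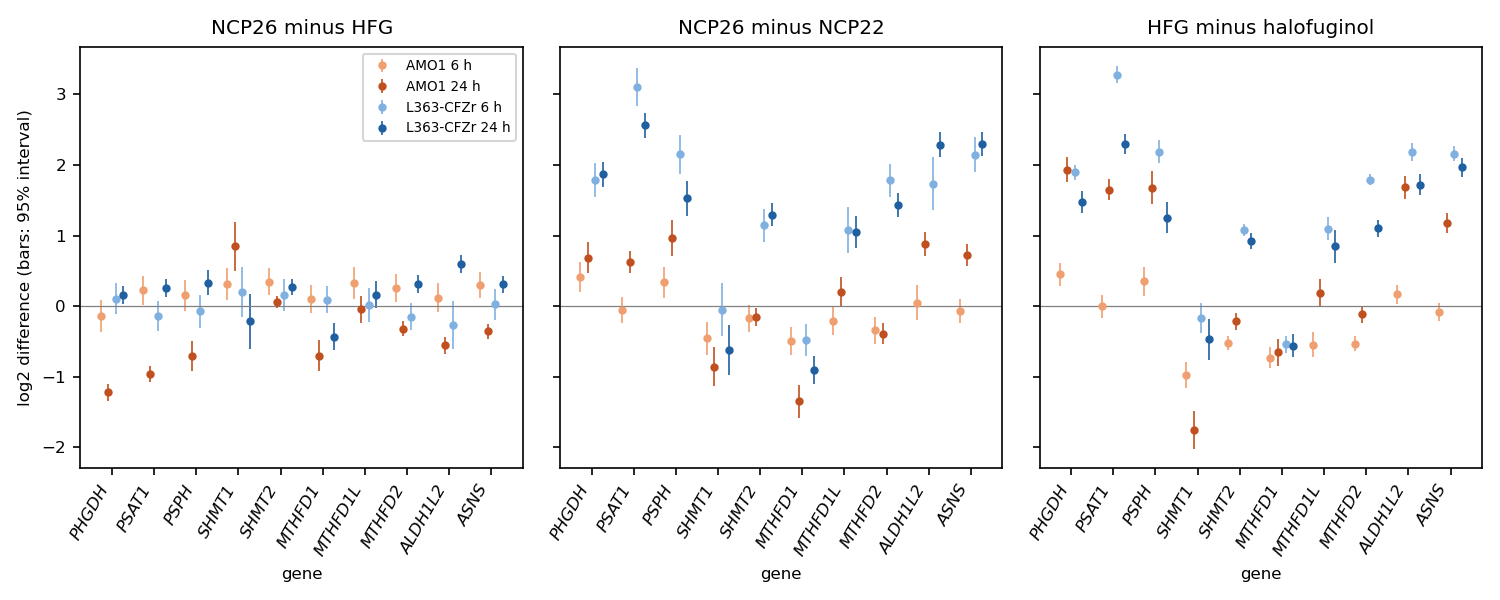
Log2 difference between compounds at the same dose, line and time for each gene, with 95% intervals as bars. NCP26 minus HFG lies between −0.27 and 0.34 at 6 h and below 0 for PHGDH and PSAT1 in AMO1 cells at 24 h. NCP26 minus NCP22 and HFG minus halofuginol lie above 1 for 8 genes in L363-CFZr cells at 6 h.

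NCP22 and halofuginol raised 5 of the 10 genes in AMO1 cells at 6 h. With NCP22, PSAT1 was at 265, 241 and 241 CPM against 105, 108 and 118 CPM with DMSO, a log2 fold change of 1.19 ± 0.078 (SE), with an adjusted p of 2.79e-10. With halofuginol it was at 200.2, 188 and 225 CPM, 0.90 ± 0.081 (SE), with an adjusted p of 8.91e-07. PSPH, MTHFD2, ALDH1L2 and ASNS were the other 4 that each compound raised, by 0.78, 0.52, 0.87 and 1.01 with NCP22. The PSPH call with halofuginol depended on single libraries, as given above. Log2 fold changes of all genes correlated with GC content there, at −0.51 for NCP22 and −0.47 for halofuginol over 10537 and 10438 genes. With an offset for GC content PSAT1 was at 1.08 and 0.82 and still called. SHMT2, which the main fits did not call, was called with that offset, at 0.32 for NCP22 and 0.27 for halofuginol. It was also called by DESeq2 (adjusted p = 0.0369 and 0.0453). With the replicate block NCP22 had further calls of SHMT2 (0.18) and MTHFD1 (−0.23). The trend with GC content was not limited to these compounds. At 6 h the correlation was −0.37 with NCP26 and −0.32 with HFG in AMO1 cells, and −0.37 and −0.57 in L363-CFZr cells. With the offset the SHMT1 call with HFG in L363-CFZr cells at 6 h was lost (−0.17). At 24 h in AMO1 cells 0 members were called with NCP22 or halofuginol. NCP22 changed 0 of 10781 genes by edgeR, with 638 at an unadjusted p under 0.05 and 3 by DESeq2, and halofuginol changed 20 (0.183%).

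In L363-CFZr cells NCP22 at 6 h called 0 of 10235 genes by edgeR, with 666 at an unadjusted p under 0.05 and 1 by DESeq2. PSAT1 was at 60.2, 65.1 and 52.2 CPM there, with an interval of −0.06 to 0.40 against DMSO. Halofuginol at 6 h called 2 members, MTHFD2 at 0.19 ± 0.057 (13.6% of all genes higher) and SHMT2 at −0.17 ± 0.055 (12.2% lower). With the offset for GC content neither was called, at 0.0012 and 0.0094, and the correlation with GC content was −0.72 over 10367 genes. At 24 h NCP22 and halofuginol called 0 genes by edgeR, with 213 and 410 at an unadjusted p under 0.05, and 0 by DESeq2. Set against each other, the compounds of a pair differed widely here. PSAT1 was higher with NCP26 than with NCP22 by 3.11 ± 0.12 (SE), with an adjusted p of 8.16e-08, and with HFG than with halofuginol by 3.28 ± 0.060 (SE), with an adjusted p of 7.03e-27. At 6 h 8 members were higher with NCP26 than NCP22 (9.96%) and 1 lower (10.4%), and likewise 8 (23.1%) and 1 (24.2%) for HFG against halofuginol. At 24 h both pairs had 8 higher (16.2% and 9.59%) and 2 lower (17.9% and 12.3%). The SHMT1 call for HFG against halofuginol at 24 h was lost by DESeq2 and without replicate 2 or 3 of either compound.

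In AMO1 cells at 6 h PSAT1 and ASNS passed the test in neither analogue pair. NCP26 minus NCP22 was −0.05 ± 0.087 for PSAT1 (interval −0.24 to 0.13) and −0.07 ± 0.079 for ASNS (interval −0.24 to 0.10). HFG minus halofuginol was −0.08 ± 0.059 for ASNS, with an interval of −0.20 to 0.05. Other members were called, 2 higher (12.6% of all genes) and 3 lower (12.2%) with NCP26 than NCP22, and 3 higher (25.6%) and 5 lower (26.1%) with HFG than halofuginol. Of the 5 for NCP26 against NCP22 only 2 were called without NCP22 replicate 2, and the PSPH call was also lost by DESeq2 and without the filter on low counts. The largest difference was that of SHMT1, HFG minus halofuginol, at −0.97 ± 0.086 (SE), with an adjusted p of 6.52e-08. The ALDH1L2 call for HFG against halofuginol was lost by DESeq2, without that filter, and without HFG replicate 2 or halofuginol replicate 2 or 3. At 24 h NCP26 stood above NCP22 for 5 members (26.3%) and below for 4 (25.7%), and HFG above halofuginol for 5 (27.9%) and below for 3 (28.7%). Among the 4, the SHMT2 call was lost without that filter, with the replicate block and without most of the single libraries.

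The size of the response differed between the lines when the difference itself was tested. For NCP26 at 6 h 8 members rose more in L363-CFZr than in AMO1 cells (1.96% of all genes) and 0 less. PSAT1 differed by 2.17 ± 0.13 (SE), with an adjusted p of 1.03e-07, and MTHFD2 by 1.66 ± 0.12 (SE), with an adjusted p of 8.36e-07. SHMT1 and MTHFD1 were the 2 not called, with intervals of −0.09 to 0.77 and 0.09 to 0.64. At 24 h 8 again differed (2.97%), MTHFD2 most, by 1.96 ± 0.16 (SE), with an adjusted p of 7.35e-05. The calls of ALDH1L2 and MTHFD1 among them lay near the threshold and were lost without most of the single libraries, that of ALDH1L2 also with size factors of DESeq2 and that of MTHFD1 also with the replicate block or without the filter on low counts. For HFG at 24 h 6 differed (8.06%), MTHFD2 by 1.36 ± 0.15, SHMT2 by 1.22 ± 0.14 and SHMT1 by 1.23 ± 0.20. PHGDH, PSPH and ALDH1L2 did not pass that test for HFG, with intervals of −0.67 to 0.13, −0.79 to 0.11 and −0.82 to 0.27. Without DMSO replicate 2 of L363-CFZr 9 members differed for NCP26 and 8 for HFG at 24 h, and PHGDH and PSPH then rose less in L363-CFZr cells with HFG, at −0.43 and −0.48. The AMO1 DMSO levels that enter these differences were higher for 8 members at 6 h, as given above. HFG at 6 h was not tested for this difference, since its library set differed from that of DMSO in L363-CFZr cells. The tested 24 h differences carry the same limit, since NCP26 and HFG were of another set than DMSO in AMO1 cells. Only NCP26 at 6 h was of 1 set with DMSO within each line. The tested differences also cross library sets.

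**Figure D5:**
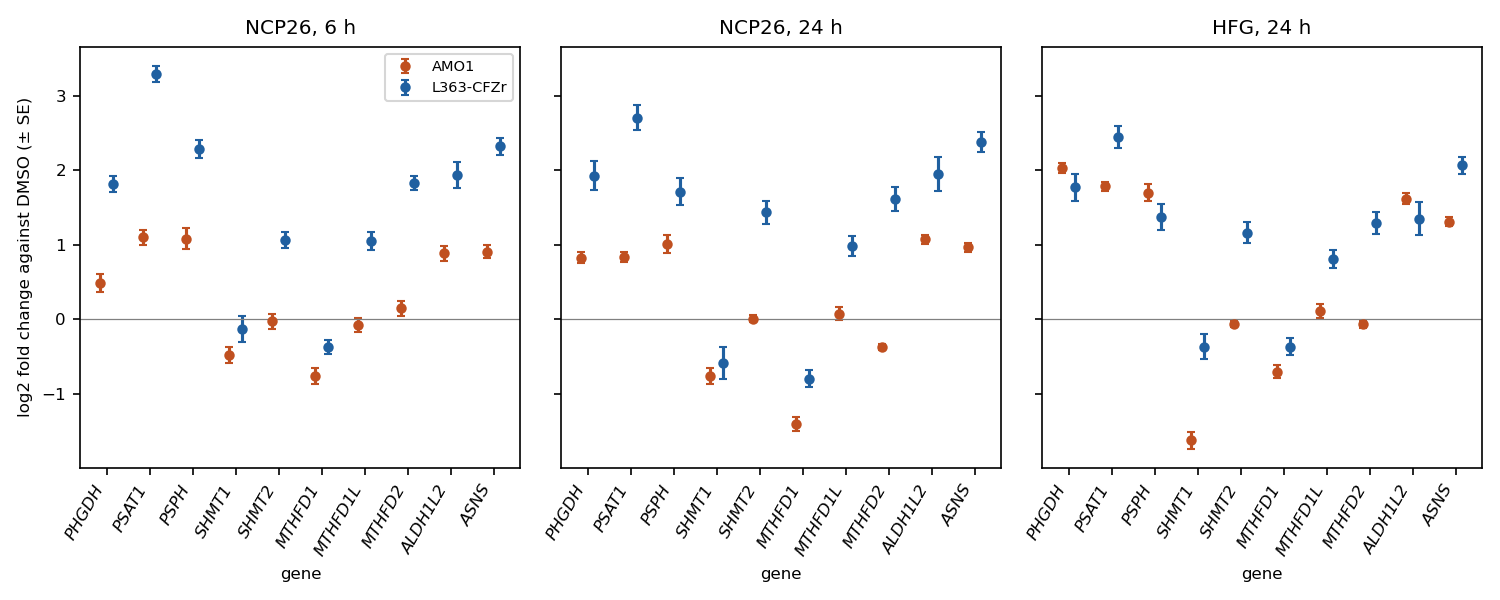
Log2 fold change against DMSO (± SE) of each gene in AMO1 and L363-CFZr cells, for NCP26 at 6 h, NCP26 at 24 h and HFG at 24 h. SHMT2, MTHFD1L and MTHFD2 lie near or above 1 in L363-CFZr cells and at or below 0.15 in AMO1 cells, while PHGDH with HFG at 24 h is at 2.03 in AMO1 and 1.77 in L363-CFZr cells.

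Genes of the stress response and MYC were read beside the members, all as log2 fold changes. TRIB3, a pseudokinase and ATF4 target, rose by 3.09 ± 0.12 with NCP26 and 2.99 ± 0.068 with HFG in L363-CFZr cells at 6 h, and by 1.53 ± 0.079 with CFZ in AMO1 cells. DDIT3, which encodes the factor CHOP, rose by 1.86 ± 0.10 with NCP26 in AMO1 cells at 6 h and by 0.29 ± 0.086 with NCP22, where ASNS rose by 0.91 ± 0.092 and 1.01 ± 0.070. The mRNA of ATF4, whose output is set largely at translation, rose with NCP26 in L363-CFZr cells by 0.90 ± 0.12 and stood at −0.22 ± 0.10 in AMO1 cells at 6 h, a called difference between the lines of 1.10 ± 0.16. MYC, a factor that drives growth and can bind CACGTG, fell in AMO1 cells at 6 h, with −1.08 ± 0.094 with NCP26 and −1.21 ± 0.067 with HFG, and stood at −0.20 ± 0.098 with NCP26 in L363-CFZr cells, not called.

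The connected pathways were followed in 45 other genes in 6 lists. With NCP26 in L363-CFZr cells at 6 h 8 of the 40 tested rose and 4 fell, where 9.81% of all genes rose and 8.99% fell, 28 were not called, and the median log2 fold change was 0.0063 against 0.01 over all genes, and at 24 h 3 rose and 3 fell, where 2.71% and 4.38% did. Of the 12 folate cycle and transport genes tested, 0 were called at 6 h. CTH, which makes cysteine in transsulfuration, had the largest change of the 40. It was at 2.63, 4.43 and 3.44 CPM with DMSO and at 36.3, 40.7 and 33.96 CPM with NCP26, a log2 fold change of 3.42 ± 0.20 (adjusted p = 1.84e-06). CBS, which acts before it, rose by 1.11, and ASS1, which uses aspartate, by 1.13. GLDC, which degrades glycine, fell by 1.58 at 24 h. Without DMSO replicate 2 the 24 h values of CTH and GLDC were 2.84 and −1.59.

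In AMO1 cells with NCP26 6 of 40 pathway genes rose and 13 fell at 6 h, where 18.1% of all genes rose and 19.2% fell, and 12 rose and 20 fell at 24 h, where 29.8% of all genes rose and 30.9% fell. CTH rose at 6 h by 1.41, while MAT2A, which makes the methyl donor, fell by 1.29 and the folate carrier SLC19A1 fell by 1.26. With HFG at 24 h 13 of 40 rose and 16 fell, where 28.5% and 30.5% did. GLUL, glutamine synthetase, was at 60.2, 70.6 and 65.4 CPM with DMSO and 5.63, 4.55 and 5.64 CPM with HFG, a log2 fold change of −3.63 ± 0.15 (adjusted p = 6.17e-13). CBS rose there by 2.53 and GLDC fell by 2.08. Of the 6 listed genes of purine synthesis, a pathway that uses formyl-folate, all 6 fell with HFG at 6 h (26.6% of all genes). With NCP26 at 24 h 5 of these purine synthesis genes fell (30.9% of all genes). With NCP26 at 6 h 2 of them fell, and with HFG at 24 h 3 fell and 1 rose. CFZ at 24 h raised 3 and lowered 10 of 39, where 13.1% of all genes rose and 14% fell, among them CBS, which rose by 1.42, and GLUL, which fell by 1.94. ALDH1L1, BHMT, FTCD and SDS did not pass the count filter in any comparison.

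Over the 22 group means of log2 CPM, each line centred on its own mean, the pattern most like PSAT1 among 10160 genes was that of ASNS (r = 0.99), then PSPH (0.97) and SLC1A5 (0.97), a carrier of neutral amino acids. ASNS was followed most closely by PSAT1, SLC1A5 and CTH. The genes nearest PHGDH were KIF21B, EPRS1 and ALDH1L2, at 0.93, 0.93 and 0.92. EPRS1 encodes the glutamyl-prolyl-tRNA synthetase whose prolyl part the compounds inhibit. MTHFD1 was nearest to LRP8, PPP5C and SLC38A5, at 0.98 each, and SHMT1 to NRROS, TMEM131L and UNC93B1. Neither had another member among its nearest 3. The same held for MTHFD2, nearest to SLC43A1, SLC7A1 and RCN1, and for ALDH1L2, nearest to TBL1X, NIBAN1 and TCEA1. PSPH was nearest to PSAT1, CTH and SLC1A5, SHMT2 to GPT2, GDF15 and MTHFD2, and MTHFD1L to WARS1, MTHFD2 and RHBDD1. These values describe 22 means that share treatments, library sets and depth, and no test was made of them.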

How the data were processed

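Poly(A) RNA of AMO1 and CFZ-resistant L363 cells gave 66 libraries. Before extraction the 6 h pellets were frozen and the 24 h pellets kept on ice, so time and storage cannot be told apart. The authors pseudo-aligned the reads with kallisto and deposited unnormalized whole counts by gene. Its version is not given in the sources used here. The submitters' processing notes name hg19 and the paper's methods GRCh38. Gene positions here are of GENCODE v44 (GRCh38) and printed windows of RefSeq (GRCh38.p14). The paper states biological triplicates for its experiments in general and triplicates for the RNAseq conditions. It does not say whether the replicates of these libraries were separate cultures, so p-values measure only the spread between these samples.

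Each comparison used its own libraries alone, or 12 for differences between lines, in edgeR (version 4.0.16, R 4.3.3). Genes passed filterByExpr (minimum count 10, minimum total 15). TMM factors were used with the quasi-likelihood test, and p-values were adjusted by Benjamini-Hochberg (threshold 0.05). Alternatives were DESeq2 1.42.0, its size factors, no filter, one fit per line, that fit with a library-set term, a GC content offset (lowess span 0.3), a replicate block and each library left out. The fits were tested on simulated data. Tables and plots were made in Python 3.11.15 with pandas 2.3.3 and matplotlib 3.10.9.

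The members, the 45 pathway genes and the reference genes were chosen with earlier results of these data known. Named were all members, ATF4, DDIT3, TRIB3 and MYC, the 3 genes most like each member, and up to 3 pathway genes per comparison with NCP26, HFG or CFZ, by size of a called change at a mean of at least 5 CPM without overlap. The windows printed were chosen after the values were seen.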

Additional observations from a re-analysis of the deposited data

Results flagged for a closer look

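The following values were picked out because an effect differed between lines by its own test, or because all libraries of a gene moved one way in 1 setting and the other way in another. By the interaction test, NCP26 at 6 h raised more in L363-CFZr than in AMO1 cells, on the log2 scale, PSAT1 (2.17), MTHFD2 (1.66), ASNS (1.40), PHGDH (1.31), PSPH (1.18), MTHFD1L (1.11), SHMT2 (1.07) and ALDH1L2 (1.03). At 24 h the differences were 1.96 for MTHFD2, 1.84 for PSAT1, 1.40 for SHMT2, 1.39 for ASNS, 1.07 for PHGDH, 0.87 for MTHFD1L, 0.86 for ALDH1L2 (adjusted p = 0.0496 by edgeR) and 0.57 for MTHFD1 (adjusted p = 0.0405 by edgeR), where MTHFD1 fell less in L363-CFZr cells. Both of these calls were lost without most of the single libraries. For HFG at 24 h they were 1.36 for MTHFD2, 1.23 for SHMT1, which fell less in L363-CFZr cells, 1.22 for SHMT2, 0.75 for ASNS, 0.69 for MTHFD1L and 0.65 for PSAT1.

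In the cases below the 2 directions are given side by side, and the difference between them was not tested. Between lines, HFG at 6 h gave SHMT2 −0.34 in AMO1 and 0.91 in L363-CFZr cells, and MTHFD1L −0.38 and 1.04. Halofuginol at 6 h gave SHMT2 0.17 in AMO1 (not called) and −0.17 in L363-CFZr cells, and 0.23 in L363-CFZr cells at 24 h (not called). The 6 h AMO1 value was called by DESeq2 and with the GC content offset (0.27). The 6 h L363-CFZr call was lost by DESeq2 (adjusted p = 0.0536) and with that offset (0.0094). Between times in AMO1 cells, NCP26 gave MTHFD2 0.15 at 6 h (adjusted p = 0.250 by edgeR, not called) and −0.37 at 24 h, a call lost with a term for the library set, and HFG gave MTHFD1L −0.38 at 6 h and 0.11 at 24 h (adjusted p = 0.318 by edgeR, not called). The MTHFD2 value at 6 h was called without NCP26 replicate 1 (0.22). CFZ gave, at 6 h and then 24 h, MTHFD2 0.72 and −1.13, PSAT1 0.84 and −0.53, ASNS 0.78 and −0.50, SHMT2 0.34 and −0.82, and MTHFD1L 0.25 and −0.51. The 24 h calls of PSAT1, ASNS and MTHFD1L and the 6 h call of MTHFD1L were lost without single libraries. The 24 h AMO1 values, the 6 h L363-CFZr values of HFG and halofuginol and all differences between lines cross library sets, which cannot be told apart from treatment or line.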

How the results depend on the processing

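Single values of members were those with DMSO, with another compound or between lines. Under the alternatives other than leaving out a library, 1876 stayed on their side of the threshold, 13 became called and 40 were no longer called. A further 1 changed sign and was called in at least 1 of the 2 fits. With 1 library left out, 2142 stayed, 14 became called, 123 were no longer called and 1 changed sign in that way. Values called in neither fit were counted as staying, also where their sign changed. Values that changed sign and were called in one of the settings were SHMT2 with halofuginol in L363-CFZr cells at 6 h, at 0.0094 with the GC content offset, and, among the reference genes, ATF4 with HFG in AMO1 cells at 6 h, at 0.14 with that offset. ALDH1L2 between lines with DMSO at 24 h (0.07) ran from −0.25, without L363-CFZr DMSO replicate 2, to 0.23 with 1 library left out. Counts of called members that moved over 1.5 times were as follows. For halofuginol in L363-CFZr cells at 6 h the 2 became 1 by DESeq2 and 0 with all groups in one fit, the library-set term or the GC content offset, and ran from 0 to 2 with 1 library left out. For HFG in L363-CFZr cells at 24 h the 8 became 3 with the replicate block and ran from 2 to 10. With 1 library left out, CFZ in AMO1 cells at 24 h ran from 3 to 7, NCP22 in AMO1 cells at 24 h from 0 to 2 (2 without NCP22 replicate 1), NCP26 against HFG in AMO1 cells at 6 h from 0 to 1 (1 without NCP26 replicate 1), and NCP26 against NCP22 there from 2 to 5 (2 without NCP22 replicate 2). The cause was not tested. Samples with the same replicate number were checked for deviations they share. Correlations ran from −0.361 to 0.332, and in 0 of 32 comparisons were all 3 above 0.1. The numbers were therefore not used as pairs in the main fits, though this check cannot exclude a weak or partial pairing. With the replicate block 335 member values stayed on their side of the threshold, 13 were no longer called and 2 became called. Depth, with a least total of 1666325 counts, limits what was detectable for the lower genes, and 3 libraries against 3 limit every interval.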
